A study of Mus musculus with 3647 samples.

Results

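Oligodendrocyte nuclei were examined on the 3 plates of mouse tissue taken beside the thalamic reticular nucleus (TRN) whose plate names carry GPE, for the globus pallidus: GPEp24, gpe_23 and gpe_25. A nucleus was counted as an oligodendrocyte when at least 4 of the 6 genes Mag, Mog, Mobp, Cldn11, Cnp and Mal were above 0 and fewer than 3000 genes were detected. The rule took 83 of the 190 nuclei with values on these plates: 15 of 41 on GPEp24, 40 of 76 on gpe_23 and 28 of 73 on gpe_25. The whole series holds 3647 labelled samples, each 1 nucleus or cell, and the table used here holds 1687 nuclei. Nuclei were isolated on a sucrose gradient and sorted on a DNA dye (Violet) alone, without an antibody, and RNA was read with a modified Smart-seq2 protocol. The comparison group was the nuclei that met the same rule on TRN plates sorted the same way, without NeuN selection. They were 42.1% of the TRN nuclei with values and lay mainly on 12 plates of 14 to 37 members each. The labels give neither strain, genotype, age, sex nor treatment for these nuclei, nor any animal, and the plate type of the globus pallidus plates is given only as tissue adjacent to the TRN. Each tissue therefore counts as 1 sample and no test between them was possible. Plates are shown as a description of spread, and whether 2 plates share an animal is unknown.

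Oligodendrocytes wrap axons in myelin, a stack of membrane held together by proteins such as myelin basic protein (Mbp) and rich in cholesterol and galactolipids. They also take up iron, clear glutamate and potassium and supply axons with fuel. The globus pallidus is crossed by many myelinated fibres and is one of the iron-rich regions of the brain. Mature oligodendrocytes are known to span states that differ in genes such as Opalin, Ptgds, Klk6 and Il33.

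The members were chosen by the 6 rule genes, so these levels describe the choice. All 6 were above 0 in 79 of the 83 nuclei, 5 in 3 nuclei and 4 in 1. Just outside the rule, 4 nuclei had 3 of the genes and 8 nuclei had at least 4 but 3063 to 4998 detected genes. The member with the most detected genes had 2985 and the next 2865. Levels are given in TPM (transcript abundance corrected for gene length, with the same sum in every nucleus). TPM keep no read count, so the depth of each library is unknown, and the number of detected genes was used in its place. Members had a median of 2145 detected genes (range 1578 to 2985) on the globus pallidus plates and 1985.5 (1503 to 2906) on the TRN plates.

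The cell type label was checked against genes the rule did not use. Mbp, one of the given markers, was found in 82 of the 83 members at a mean of 12366 TPM. Among the 85 nuclei on the same plates with at most 1 rule gene, whose median was 3858 detected genes, the mean of Mbp was 146.8 TPM. Those other nuclei also bore on the tissue label. Penk, the enkephalin precursor of striatal and pallidal neurons, averaged 1529 TPM in them against 71.6 TPM in such nuclei of the TRN plates. Slc17a6, the vesicular glutamate transporter of thalamic relay neurons, averaged 0.967 against 56.7 TPM. Each is 1 gene of a longer list (15 striatal and pallidal, 13 thalamic genes). Penk does not tell globus pallidus from striatum.

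Oligodendrocytes made up 43.7% of the globus pallidus nuclei with values (exact 95% binomial interval 36.5 to 51.1) and 42.1% (38.4 to 45.8) of the TRN nuclei, so that the intervals overlapped. Such intervals cover counting error only. By plate, the share was 36.6% on GPEp24, 52.6% on gpe_23 and 38.4% on gpe_25. The 12 TRN plates with at least 10 members spanned 24.6% to 72% (median 34.7%). The 3 globus pallidus plates lay inside that range. The labels give no batch. Plates were also compared within 2 sets of names, those that start with X012116 and those in lower case. Within X012116, GPEp24 stood at 36.6% and the TRN plates at 32.4%. Within the lower-case names, gpe_23 and gpe_25 stood at 45.6% and trn_10 at 31.9%. The 4 TRN plates of prefix X083116, which have no globus pallidus plate beside them, reached 62.9%. Only nuclei with values enter these shares, and why other wells have no values was not stated in the labels.

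The myelin genes stood at nearly the same level in both tissues. Of 16 genes of compact myelin and the myelin membrane, 8 were higher and 8 lower on the globus pallidus plates and 0 differed 2-fold, with ratios from -0.25 to 0.23 on the log2 scale. All ratios are log2 of (mean TPM + 1) on the globus pallidus plates over the same in TRN, and all 16 genes passed the filter on low values (found in at least 20% of nuclei in either tissue). Of all 3777 genes that passed, 5.11% were at least 2-fold higher and 6.65% at least 2-fold lower. The list's median log2 ratio was -0.02, and that of all genes tested was 0.01. The 16 genes together made up 8.71% of TPM in globus pallidus and 9.36% in TRN oligodendrocytes.

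Mbp, which joins the inner faces of the membrane, averaged 14890 TPM on GPEp24, 11836 on gpe_23 and 11770 on gpe_25, against 10622 to 15018 (median 13045), all inside the TRN range. Its log2 ratio was -0.06, with an SD of 0.19 over the 3 plates. Cnp, the cyclic nucleotide phosphodiesterase of non-compact myelin, gave -0.25 (SD 0.12), and the adhesion protein Mag, at the membrane facing the axon, gave 0.06 (SD 0.19).

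GPEp24 departed from the other plates in several myelin genes. Cldn11, the claudin of myelin tight junctions, averaged 3331 TPM there, 6900 on gpe_23 and 6385 on gpe_25, with 4903 to 7830 over the TRN plates. Only GPEp24 lay below the TRN range. Mal, a lipid raft protein, averaged 1760, 3848 and 3045 TPM, with 1654 to 3769 in TRN. Opalin, a glycoprotein of the paranodal loops, averaged 470.1, 1872 and 1248.47 TPM, with 580.6 to 2470 in TRN, so that GPEp24 was again the lowest of all plates. Within prefix X012116 the log2 ratio was -0.91 for Cldn11, -0.83 for Mal and -1.51 for Opalin, and among the lower-case plates it was -0.23, 0.14 and -0.61. GPEp24 rests on 15 nuclei.

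**Figure D1:**
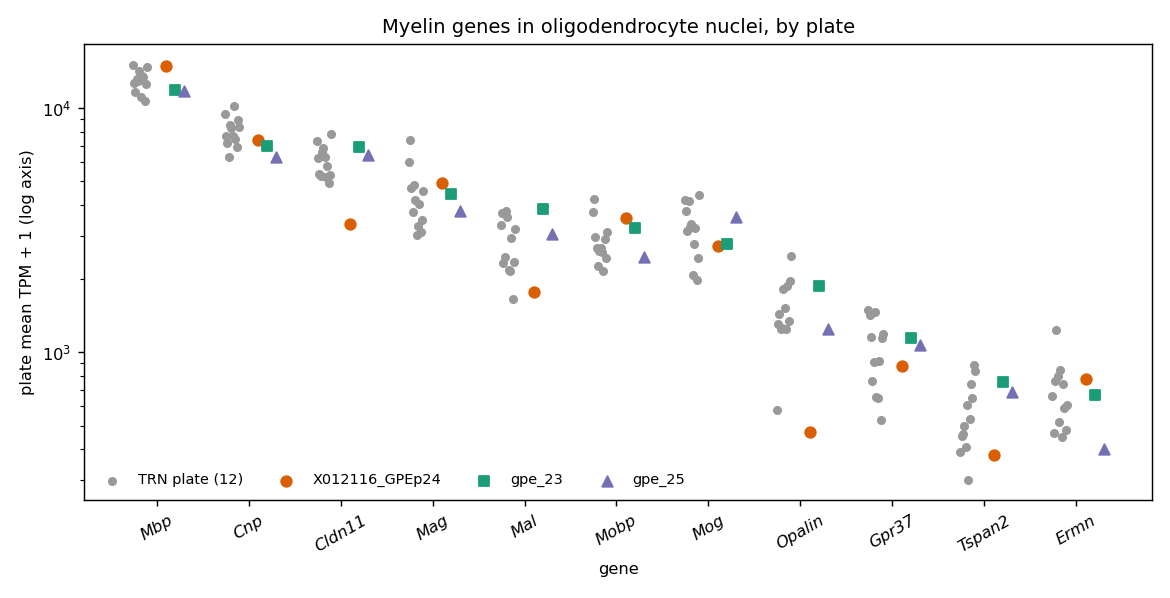
Plate means of 11 myelin genes (TPM + 1, log axis) in oligodendrocyte nuclei: grey points are the 12 TRN plates with at least 10 members, coloured points the 3 globus pallidus plates. Most globus pallidus means sit within the TRN range, while GPEp24 is below it for Cldn11 and Opalin.

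Across all genes the tissues were close. Log2 mean TPM correlated across the 3777 genes tested with Pearson's r of 0.949, a figure over genes, which are not independent replicates. The 2-fold genes, 5.11% higher and 6.65% lower, lay mostly among the sparse ones. None of the 78 genes with a mean of at least 1000 TPM on the globus pallidus plates differed 2-fold. Their ratios ran from -0.69 for Ckb, the brain creatine kinase, to 0.82 for Grk4. A limit on that side alone leaves out genes abundant only in TRN. D4Wsu53e was such a gene, at 653.3 TPM on the globus pallidus plates against 1467 TPM in TRN (-1.17). Among genes found in at least 50% of nuclei in either tissue, 22 (2.19%) were 2-fold higher and 34 (3.38%) lower. Without gpe_23, which holds 40 of the 83 nuclei, 8.47% of the genes tested were higher and 11.5% lower. Without gpe_25, 10% were lower. The share of higher genes among the 2-fold genes changed with the averaging. Of those called, 43.5% were higher by the ratio of means, but 82.8% by the difference of mean log2 values (33 genes lower). The latter moved the median of all genes to 0.16. Leaving out the highest nucleus of each gene in each group gave 20.2% and moved that median to -0.12. This step takes equally many nuclei from both groups, although the TRN group is larger. It therefore tends to lower the globus pallidus means of sparse genes more, and the 20.2% cannot show a direction.

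A stricter count asked for a 2-fold difference, with every globus pallidus plate mean beyond all 12 TRN plate means and the same direction within both sets of plate names. At any fold, 13 genes lay above all TRN plates on each globus pallidus plate and 3 lay below. Of the 3777 genes, 6 were higher by this rule (0.159% of genes) and 2 were lower (0.053%). The higher ones were Tmem206, Gdpd5, Ndufa2, Minos1, Tnrc6b and Ndufa3, and the lower ones Pgp and Six2. How many genes plate order alone would set apart is not given here, so these counts describe plates and carry no test. With fewer plates to separate, more genes passed: 43, 69 or 57 without GPEp24, gpe_23 or gpe_25. The count was 15 without the TRN plate TRNp5 and 13 without plate P2 of prefix X083116. The 8 genes did not all keep their call. With values as deposited 3 of them kept it (Gdpd5, Ndufa2 and Pgp), by mean log2 values 4 (these 3 and Tnrc6b), and with no limit on detected genes 5 (without Minos1, Pgp and Six2). With at least 3 rule genes 6 kept it (without Ndufa2 and Pgp). When the 2 members and 8 TRN members with at least 4 of 7 neuronal markers were left out, 6 kept it (without Tmem206 and Six2). With detection in at least 50% of nuclei only Tmem206 and Tnrc6b were left to test, and both kept it.

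Gdpd5, a glycerophosphodiesterase of the cell surface (chromosome 7, 99381463 to 99461875, mm10), averaged 326.99 TPM on GPEp24, 144.8 on gpe_23 and 121.3 on gpe_25, against 3.63 to 89.5 (median 44.9) over the TRN plates. All 3 means were above the highest TRN plate. Its log2 ratio was 1.73 (SD 0.76 over the 3 plates), with 2.80 within X012116 and 2.12 within the lower-case plates. It was found in 24 of 83 nuclei (28.9%, interval 19.5 to 39.9) and in 19.2% of the TRN members. In the nuclei of the same plates with at most 1 rule gene the log2 ratio was -0.39.

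Tmem206, a proton-activated chloride channel also named Pacc1 (chromosome 1, 191325902 to 191351284), had the highest ratio of the 8, 2.46 (SD 0.49). Its means were 26.7, 48.8 and 26.3 TPM on GPEp24, gpe_23 and gpe_25, against 1.41 to 20.1 (median 4.19) in TRN. The share of nuclei in which it was found hardly differed, 56.6% and 55.5%, and the medians over nuclei were 2.48 and 1.52 TPM, and the difference of mean log2 values was only 0.63. Tnrc6b, a scaffold of microRNA silencing (chromosome 15, 80711313 to 80941086), averaged 46.7, 32.1 and 35.4 TPM against 5.35 to 23.3. It was found in 59% of nuclei against 36.3%, and its log2 ratio was 1.15 (SD 0.27).

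The other higher genes encode proteins of the mitochondrial inner membrane, Ndufa2 and Ndufa3 in respiratory complex I and Minos1 (now Micos10) in the complex that shapes the cristae. Ndufa2 (chromosome 18, 36742332 to 36744587) averaged 337.1, 280.7 and 294.7 TPM on the 3 plates against 0 to 250.1 (median 120) in TRN, a log2 ratio of 1.32 (SD 0.14). Ndufa3 (chromosome 7, 3617347 to 3620165) averaged 261.2, 190.3 and 208.1 TPM against 27.5 to 178.5, a ratio of 1.10 (SD 0.23). Minos1 (chromosome 4, 139101814 to 139131113) averaged 49.2, 48.3 and 96.7 TPM against 0.26 to 42.6, a ratio of 1.27 (SD 0.56), or 0.86 without gpe_25. Each was found in only 24.1% to 30.1% of nuclei. A list of 14 respiratory chain genes that holds none of the 3 had 6 higher and 8 lower members, with a median of -0.07. In it Cox4i1 gave 0.04, Atp5b -0.10 and Cox6a1 0.18, and only Cox7c passed 2-fold (1.27, but -0.22 within X012116). That is 1 of 14, beside 5.11% of all genes tested that were at least 2-fold higher. The list does not cover the whole chain. Outside it, genes passed 2-fold in both directions, such as Cox6b1 at 1.61 and Atp5c1 at -1.65.

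Pgp, phosphoglycolate phosphatase (chromosome 17, 24470426 to 24473110), was lower, with means of 2.52, 127.9 and 25.7 TPM on GPEp24, gpe_23 and gpe_25 against 131.8 to 402.2 (median 233.5) in TRN. It was found in 10 of 83 nuclei (12%) against 22.6% of TRN members. The log2 ratio was -1.67 (SD 2.60), with -6.05 within X012116, where 1 plate of 15 nuclei stands for the globus pallidus, and -0.61 within the lower-case plates. Without gpe_23 it was -3.62. Six2, a homeobox factor (chromosome 17, 85662736 to 85688254), stood near the limit of detection in both tissues, at 0 to 0.24 TPM over the 3 plates and 0.309 to 4.50 TPM over the TRN plates.

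Glul, glutamine synthetase, which turns glutamate and ammonia into glutamine, missed the 2-fold mark at a log2 ratio of -0.99 (SD 0.13) and was picked out after its values were seen. Its means were 463.9 TPM on GPEp24, 420.8 on gpe_23 and 500.7 on gpe_25, against 599.7 to 1385 (median 901.7) over the TRN plates. Every globus pallidus plate was below every TRN plate. The difference was nearly the same within both sets of names, -0.96 for X012116 and -1.0 for the lower-case plates, and leaving out any 1 plate gave -1.07 to -0.89. The share of nuclei with Glul was similar, 88% against 91.8%. In the nuclei with at most 1 rule gene Glul was also lower on the globus pallidus plates, at 83.4 against 139.2 TPM (-0.73). Beside it, the astrocyte list gave a summed mean of 214.5 TPM in members and 371.4 TPM in TRN members, with Gpc5 at 0 in every member and Aqp4, the astrocyte water channel, in 2.41%. The part of astrocyte RNA in the Glul difference was not tested.

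Fth1, the heavy chain of the iron store ferritin, was among the 5 genes with the highest mean and was higher on the globus pallidus plates. It averaged 15621 TPM on GPEp24, 13562 on gpe_23 and 16455 on gpe_25, against 7953 to 13826 (median 10781) in TRN. GPEp24 and gpe_25 were above every TRN plate, and gpe_23 was below the highest. The log2 ratio was 0.45 (SD 0.14), 0.50 within X012116 but only 0.10 within the lower-case plates, where trn_10 stood at 13771 TPM. In the nuclei with at most 1 rule gene it was 0.23. Ferritin genes have processed copies elsewhere in the genome, so the assignment of reads to Fth1 is uncertain.

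The other iron genes did not follow Fth1. Of 10 genes of iron handling 6 passed the filter, 1 was higher and 5 lower, and 0 differed 2-fold, with a median of -0.21. Trf, transferrin, which oligodendrocytes make in large amounts, averaged 24090 TPM on GPEp24, 12266 on gpe_23 and 13492 on gpe_25, against 10004 to 28499 in TRN. All 3 means were inside the TRN range and the ratio was -0.08 (SD 0.53). Ftl1, the ferritin light chain, gave -0.07 (SD 0.15). The transferrin receptor Tfrc was found in 21.7% of nuclei against 10.6% at means of 24.3 and 31.1 TPM, and the iron exporter Slc40a1 in none of either tissue.

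Ttr, transthyretin, known from the choroid plexus, differed between sets of TRN plates. It was found in 0 of the 83 members, which allows a share of up to 3.61% (3 counts of 83), and in 72 TRN members (24.7%). All 72 were on the 4 plates of prefix X083116, where 41.4% to 55.6% of members had it at plate means of 346.7 to 1473 TPM, and none was on the other 8 TRN plates. No nucleus of any kind on the globus pallidus plates had Ttr. Without those 4 plates 9.3% of genes were at least 2-fold higher, and 40 genes met the stricter count, all 8 genes above among them.

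**Figure D2:**
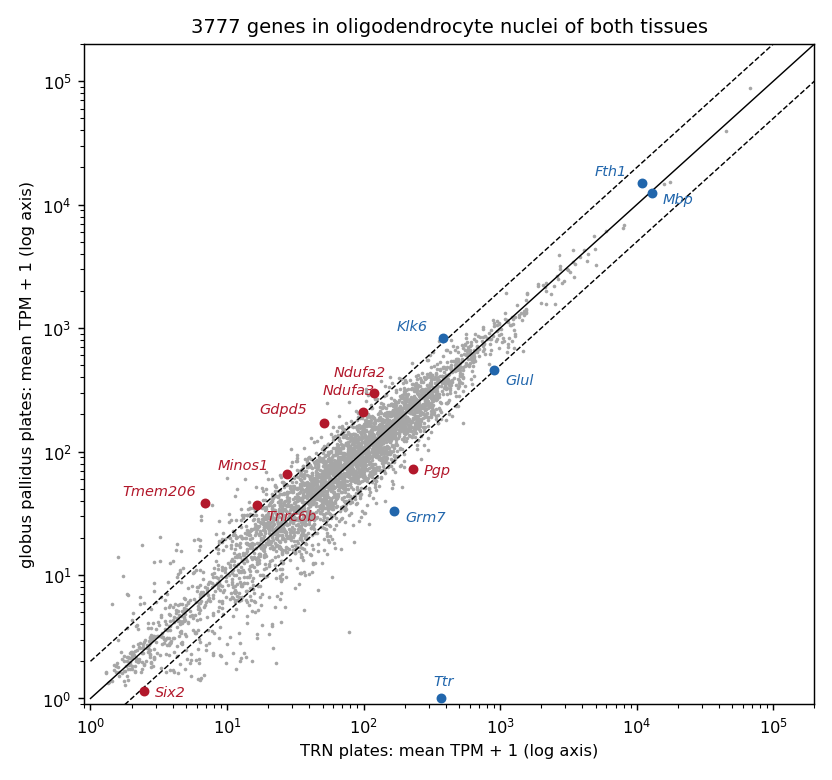
Mean TPM + 1 of 3777 genes in oligodendrocyte nuclei of the TRN plates (horizontal) and of the 83 nuclei of the globus pallidus plates (vertical), both on log axes. The solid line marks equal means and the dashed lines 2-fold, red points are the 8 genes at least 2-fold apart with plates apart, blue points are other named genes, and the spread narrows toward the abundant genes.

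**Figure D3:**
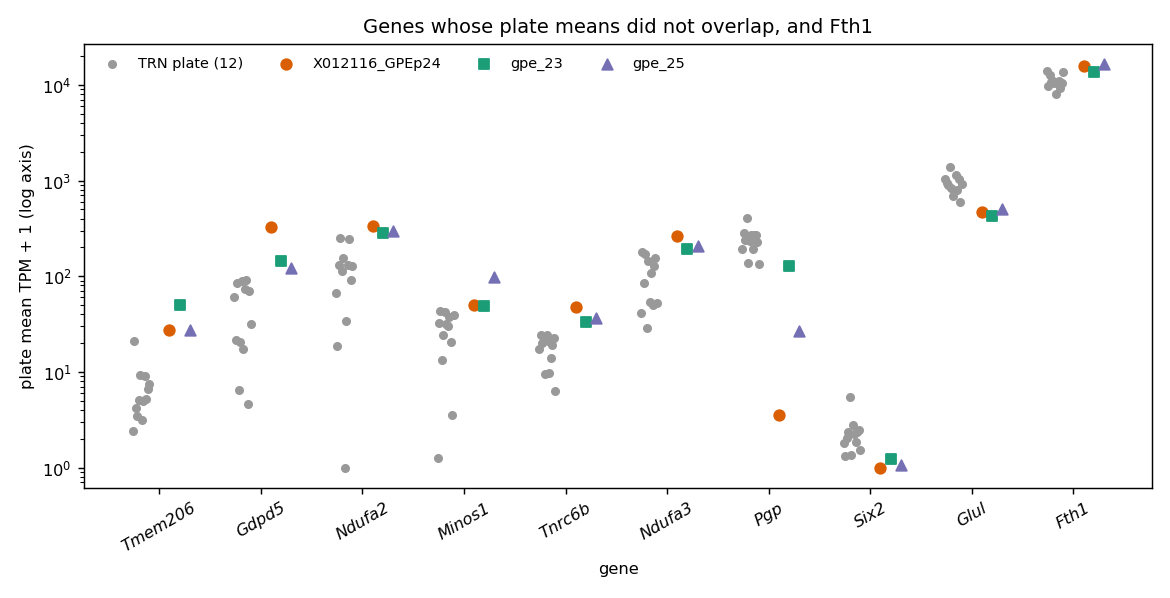
Plate means (TPM + 1, log axis) of the 8 genes at least 2-fold apart with plates apart, and of Glul and Fth1, on the 12 TRN plates (grey) and the 3 globus pallidus plates (coloured). Glul sits at 420.8 to 500.7 TPM below all grey points, while for Fth1 the gpe_23 mean of 13562 TPM falls among them.

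The lineage factors that set oligodendrocyte identity were present in both tissues. Of 13 transcription factors 11 passed the filter, 4 higher and 7 lower, with 0 past 2-fold and a median of -0.21. Olig1, a basic helix-loop-helix factor of the lineage, averaged 1032.63, 1314 and 1497 TPM on GPEp24, gpe_23 and gpe_25 against 1128.82 to 1948 in TRN, a ratio of -0.21 (SD 0.27). Sox10, which drives myelin genes, averaged 561.4, 367.9 and 366.3 TPM against 216.5 to 527.5, a ratio of 0.20 (SD 0.35). Zfp488, a zinc finger partner of Olig2, was found in every nucleus and gave -0.35, beside a single TRN plate mean of 7320 TPM. Zfp536 gave -0.41 and Carhsp1 0.03. Myrf, the membrane-bound factor needed to keep myelin, gave 0.10 (SD 0.16).

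Enzymes of myelin lipids were more often lower than higher, 12 of the 16 tested against 4, with 0 past 2-fold and a median of -0.25 beside 0.01 for all genes. Scd2, a fatty acid desaturase, gave -0.29 (SD 0.19), Enpp2, the enzyme that makes lysophosphatidic acid, -0.28 (SD 0.15), and Cers2, the synthase of very long chain ceramides, -0.56 (SD 0.58). Enpp2 averaged 2151, 2182.31 and 2606 TPM on the 3 plates against 2378 to 3410, so that gpe_25 alone reached the TRN range. Abca2, a lipid transporter, gave 0.29 (SD 0.24). Fa2h, which hydroxylates the fatty acids of galactolipids, was higher at 0.41 (SD 0.42), with means of 1058.47, 700.3 and 604.4 TPM against 370.7 to 708.2. Only its GPEp24 mean lay above the TRN range.

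Genes of the sheath's cytoskeleton stood at a median of -0.11, with 5 of 15 higher, 10 lower and 0 past 2-fold. Tubb4a, a tubulin of oligodendrocytes and neurons, gave -0.27 (SD 0.42), the septin Sept4 -0.19 (SD 0.14), Bin1, which bends membranes, -0.11, Plekhb1 -0.09 and Ndrg1 -0.39. Among 14 genes of contact with the axon 6 were higher and 8 lower, with a median of -0.06. Lgi3 gave 0.29, Hapln2, a link protein of the node, -0.22, the junction protein Jam3 0.05, and the adhesion molecules Cntn2 and Nfasc -0.07 and 0.18. Past 2-fold was 1 of the 14, beside 5.11% higher and 6.65% lower of all genes tested. It was Omg, the oligodendrocyte myelin glycoprotein, at -1.03 (SD 0.54). Its means were 375.02 TPM on GPEp24, 176.9 on gpe_23 and 236.7 on gpe_25 against 282.4 to 821.3 in TRN, so that GPEp24 overlapped the TRN plates, and without gpe_23 the ratio was -0.74.

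Channels, junctions and transporters had a median of 0.11, with 10 of 15 higher and 5 lower. Gjc3, a connexin gene of oligodendrocytes, gave 0.25 (SD 0.20). Car2, carbonic anhydrase, gave -0.19, the osmosensitive channel Tmem63a 0.05 and Qdpr, a pteridine reductase, -0.30. The potassium channel Kcnj10 was found in 71.1% of nuclei against 59.2% and gave 0.22 (SD 0.33). Trpm3 alone passed 2-fold, at -1.86, from means of 2.36 and 11.2 TPM, and turned to 1.64 within the lower-case plates. That is 1 of 15, beside 6.65% of all genes tested that were at least 2-fold lower.

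Ribosomal protein genes were mostly higher. Of 14 tested 12 were higher and 2 lower, beside 1919 higher of all 3777 genes, with 0 past 2-fold. The median was 0.46 (SD 0.15), with -0.00 within X012116 and 0.50 within the lower-case plates. Rpl4 gave 0.46, Rps4x 0.58, Rplp0 0.39 and Rpl3 0.06. Over all 66 ribosomal protein genes that passed, a set chosen after the values were seen, 52 were higher and 14 lower. At least 2-fold higher were 7 of the 66, beside 5.11% of all 3777 genes tested. The median of the 66 was 0.34, with 0.20 within X012116 and 0.51 within the lower-case plates, beside -0.22 and 0.26 for the 3777 genes in the same plates. Their summed level was 20940 TPM on GPEp24, 21758 on gpe_23 and 25080 on gpe_25, against 13508 to 21432 over the TRN plates. GPEp24 was inside that range, gpe_23 just above it and gpe_25 further above it. Many of these genes have processed copies, which makes single values uncertain. Rn45s, the ribosomal RNA precursor, took 8.73% of TPM in the globus pallidus and 6.69% in the TRN oligodendrocytes, and leaving it out before rescaling moved the median of all genes to 0.04.

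Nuclear noncoding RNAs differed in direction. Malat1 averaged 17223 TPM on GPEp24, 13019 on gpe_23 and 15028 on gpe_25 against 5305 to 15206 in TRN, a ratio of 0.44 (SD 0.20), with 0.95 within X012116 and 0.07 within the lower-case plates. Neat1, the scaffold of paraspeckles, averaged 1573, 4028 and 2979 TPM against 2146 to 7306, a ratio of -0.65 (SD 0.69). Kcnq1ot1 gave 0.52 and Gas5 -0.38. Of the stress and immediate early genes only Hspa8 and Sgk1 passed the filter, at -0.08 and -0.31, and Fos and Atf3 were at 0 in every member. Among glucocorticoid and clock genes 4 of 6 were higher, Tsc22d3 at 0.17, Per1 at 0.27 and Klf9 at 0.42 among them, Nfkbia was at -0.22 and 0 passed 2-fold. Xist was found in 98.8% of members and 94.2% of TRN members, and the Y-linked genes Ddx3y, Uty, Kdm5d and Eif2s3y were at 0 in every member.

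**Figure D4:**
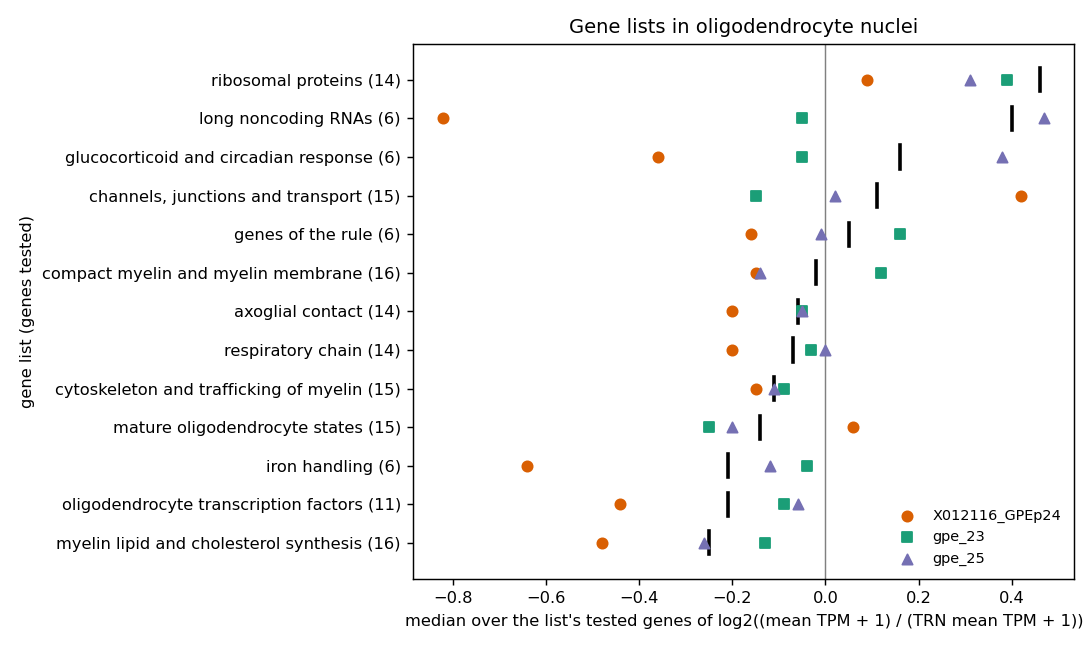
Median log2 ratio to the TRN mean over the tested genes of 13 gene lists (at least 3 genes tested, the neuronal list and the 5 given markers left out), for each globus pallidus plate (coloured points) and for the 83 nuclei together (black bars). The medians of single plates can lie apart from that of all nuclei, and the medians for all nuclei run from -0.25 to 0.46.

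Some genes known to mark states of the mature oligodendrocyte varied widely over the 83 nuclei and others did not. Among the 78 genes of at least 1000 TPM, the SD of log2(TPM + 1) over nuclei was 1.08 for Mag, 1.12 for the state gene Trf and 2.25 for Apod, but 5.35 for Opalin, 5.37 for Cd9, which is not on the state list, 5.44 for Apoe and 6.28 for Ptgds, the highest of the 78. The TRN members gave 1.96 for Mag, and 5.28, 5.42 and 6.16 for Opalin, Apoe and Ptgds. Ptgds, prostaglandin D synthase, was found in 60 nuclei and reached 76518 TPM, while it was at 0 in the rest. Opalin was found in 49 nuclei and Klk6, a secreted serine protease, in 19. This SD rises with the share of nuclei at 0, also for genes outside the state list. Cox4i1, found in 49 nuclei, gave 5.22, and Ftl1, found in 59 as Apoe was, gave 4.85. A high SD alone therefore does not tell a state from dropouts.

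Over the 120 pairs of 16 such genes, the Spearman correlations across the 83 nuclei had 2 sides. The values describe nuclei that share plates and dropouts, and carry no test. Opalin went with Ptgds (0.64), and both opposed Apod, the apolipoprotein D gene (-0.47 with Opalin and -0.67 with Ptgds). Apod went with Trf (0.61), with Anln, the septin-binding anillin (0.59), and with Klk6 (0.58). Klk6 went with S100b (0.56) and against Ptgds (-0.58) and Opalin (-0.57). Ptgds went with Il33 and Apoe (both 0.45). On each plate alone the Opalin and Ptgds correlation was 0.86 on GPEp24, 0.50 on gpe_23 and 0.70 on gpe_25, and that of Ptgds and Apod -0.80, -0.50 and -0.66. In the TRN members the same pairs gave 0.42 and -0.37. The pairs named here with Klk6 were weakest on gpe_25, where 3 of 28 nuclei had Klk6. Apod and Klk6 gave 0.81 on GPEp24, 0.64 on gpe_23 and 0.18 on gpe_25. Klk6 and S100b gave 0.40, 0.61 and 0.28 on these plates. In the TRN members these 2 pairs gave 0.48 and 0.61. The 2 sides also differed in sign against the number of detected genes. That correlation was -0.36 for Ptgds, -0.22 for Opalin, -0.23 for Apoe and -0.15 for Il33. It was 0.20 for Apod, 0.23 for Klk6, 0.14 for S100b, 0.25 for Trf and 0.26 for Anln. Each of these genes had the same sign in the TRN members. The part of detected genes in the 2 sides was not tested.

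The promoters of 4 of these genes from the 2 sides are shown, a choice made after the correlations were seen. Those of Trf and Anln, which had pairs of similar size, are not shown. Each run is the 250 bases before the start of transcription, 5′ to 3′ on the gene's strand, from RefSeq on GRCm38.p6, the build named mm10 in the processing notes. Capitals mark the words ACAAAG and ACAATG on either strand, short words of the kind bound by the HMG box of Sox factors such as Sox10. The places are chr19:41077114-41077363 (minus strand) for Opalin, chr2:25469750-25469999 (minus) for Ptgds, chr7:43824294-43824543 (plus) for Klk6 and chr16:31314809-31315058 (minus) for Apod.
Opalin: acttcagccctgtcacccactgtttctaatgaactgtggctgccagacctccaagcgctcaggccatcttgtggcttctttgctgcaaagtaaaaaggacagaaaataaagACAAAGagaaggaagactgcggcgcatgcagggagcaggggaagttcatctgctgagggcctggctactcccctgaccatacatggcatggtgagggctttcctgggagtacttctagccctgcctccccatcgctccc
Ptgds: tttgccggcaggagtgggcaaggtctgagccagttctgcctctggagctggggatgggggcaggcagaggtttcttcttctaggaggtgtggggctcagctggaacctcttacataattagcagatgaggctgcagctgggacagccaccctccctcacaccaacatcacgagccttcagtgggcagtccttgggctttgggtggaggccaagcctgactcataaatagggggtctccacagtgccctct
Klk6: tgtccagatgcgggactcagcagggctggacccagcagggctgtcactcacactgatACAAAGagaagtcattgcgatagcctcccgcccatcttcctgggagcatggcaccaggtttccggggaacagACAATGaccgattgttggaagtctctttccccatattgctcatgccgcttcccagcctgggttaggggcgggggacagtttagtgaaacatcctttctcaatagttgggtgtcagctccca
Apod: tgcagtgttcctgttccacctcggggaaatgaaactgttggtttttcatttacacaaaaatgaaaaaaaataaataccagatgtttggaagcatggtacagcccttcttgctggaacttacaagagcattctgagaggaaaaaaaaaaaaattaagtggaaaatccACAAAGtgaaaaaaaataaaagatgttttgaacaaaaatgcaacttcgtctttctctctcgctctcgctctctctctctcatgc
Klk6 held 2 matches, Opalin and Apod 1 each, and Ptgds 0, while 25.5% of the 27025 promoters of the same length held at least 1. A match is a description of these letters and not a site.

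Opalin and Klk6 were not found in the same nucleus. Of the 19 members with Klk6, 0 had Opalin (the exact 95% interval of that share reaches 17.6%), while Opalin was found in 49 of 83 and neither in 15. In TRN, 9 of 52 nuclei with Klk6 also had Opalin. Of the same 19 nuclei, 16 had S100b, 7 had Apoe, 5 had Ptgds and 2 had Il33. Klk6 was at 0 in 64 nuclei and reached 10387 TPM in the rest.

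The 2 sides were filled unequally by plate. Klk6 was found in 9 of 15 nuclei on GPEp24 (60%, interval 32.3 to 83.7), 7 of 40 on gpe_23 (17.5%, 7.34 to 32.8) and 3 of 28 on gpe_25 (10.7%, 2.27 to 28.2), against 6.9% to 42.9% over the TRN plates. Only GPEp24 lay above the TRN range. Opalin was found in 4 of 15 (26.7%), 28 of 40 (70%) and 17 of 28 (60.7%), against 50% to 71.4%, so that GPEp24 lay below. S100b was found in 73.3% of nuclei on GPEp24, 32.5% on gpe_23 and 35.7% on gpe_25, against 16.2% to 64.3%. Il33, a nuclear cytokine, was found in 20%, 52.5% and 60.7%, against 52.2% to 79.3%.

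The mean of Klk6 was 1926 TPM on GPEp24, 862.02 on gpe_23 and 182.6 on gpe_25, against 195.6 to 708.3 (median 350.9) in TRN, so that gpe_25 lay below all TRN plates and the others above. The log2 ratio of 1.11 (SD 1.72 over the 3 plates) was 0.60 without GPEp24 and 1.59 without gpe_25. Il33 gave -0.71 (SD 0.68) and, by the difference of mean log2 values, -1.49. Of the 15 state genes that passed the filter 5 were higher and 10 lower, and only Klk6 passed 2-fold. That is 1 of 15, beside 5.11% of all genes tested that were at least 2-fold higher. Ptgds gave -0.19 (SD 0.17), Apod 0.31 (SD 0.27) and Apoe -0.08 (SD 0.34).

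**Figure D5:**
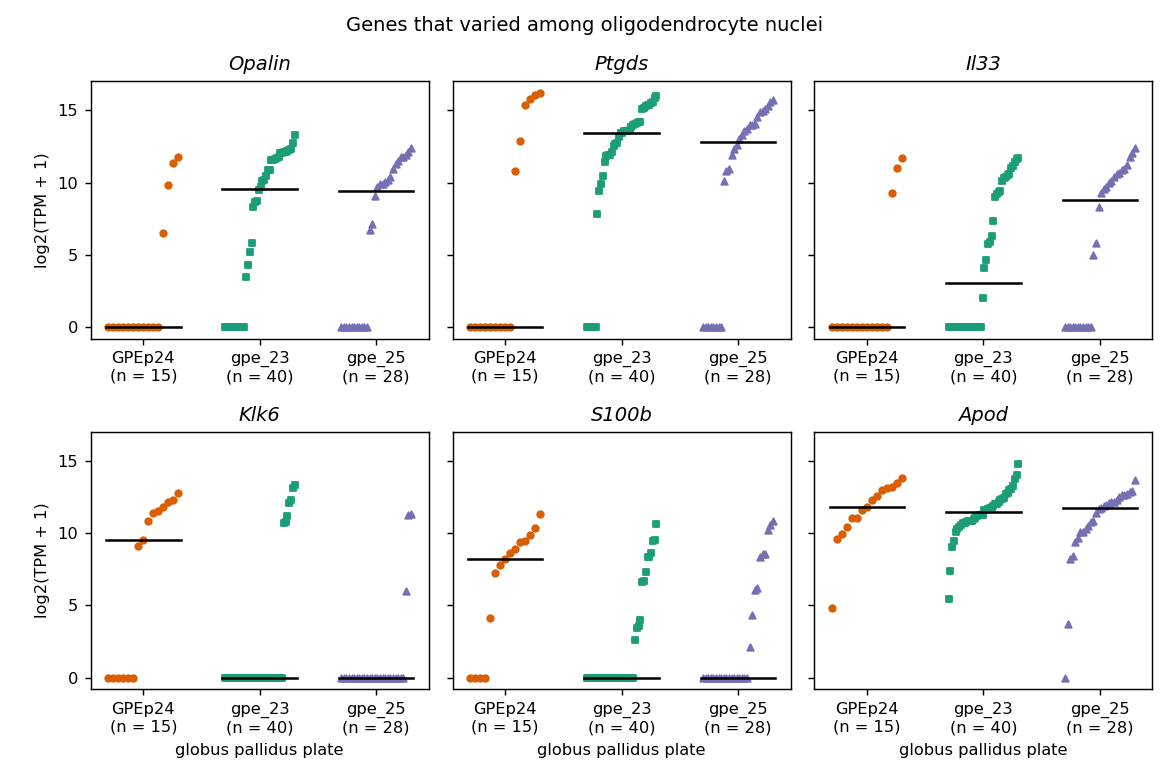
Each point is 1 oligodendrocyte nucleus of a globus pallidus plate, ordered by value within the plate, and bars are medians; the vertical axis is log2(TPM + 1). Klk6 is at 0 in 64 of 83 nuclei, with 9 of 15 nuclei above 0 on GPEp24 against 7 of 40 and 3 of 28, while Opalin is above 0 in 4 of 15, 28 of 40 and 17 of 28.

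Grm7, Tmsb4x and Rpsa were picked out after their values were seen. Grm7, a metabotropic glutamate receptor, was found in 13 of 83 members (15.7%, interval 8.61 to 25.3) and 35.6% of TRN members (30.1 to 41.4). It averaged 51.3 TPM on GPEp24, 42.9 on gpe_23 and 6.29 on gpe_25 against 26 to 299.3 (median 117.8) in TRN, so that the plates overlapped at the low end. The ratio was -2.34 (SD 1.57), with -1.03 within X012116 and -2.06 within the lower-case plates, and 0.23 in the nuclei with at most 1 rule gene. Tmsb4x, which binds monomeric actin, gave 0.99 (SD 0.31), with means of 512.1, 578.7 and 780.3 TPM above all TRN plates (96.2 to 479.8). Rpsa, a ribosomal protein and laminin receptor gene, gave 0.87 (SD 0.23), also above all of them.

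Markers of other cells were mostly low in the members. Precursor genes were near 0, with Pdgfra in 1.2% of nuclei and C1ql1 and Tnr at 0 in all, and of 14 genes on that list only Bcas1 and Enpp6 passed the filter, at -0.03 and 0.15. Of 11 neuronal markers 4 passed, 3 higher and 1 lower, with a median of 0.58 and 1 past 2-fold (Meg3, at 1.05). Of the others Rbfox3, Slc17a6 and Slc17a7 were at 0 in every member, while the list summed to at most 394.7 TPM on any of the 3 plates (median nucleus 4.28 TPM) and to 2.11 to 831.5 TPM over the TRN plates. At least 4 of 7 pan-neuronal markers were found in 2 members and in 8 TRN members. Of 10 microglial genes 6 were at 0 in all members and 1 passed the filter, Cx3cr1, at means of 1.05 and 4.42 TPM. The microglial sum was 149.5 TPM on GPEp24, 38.2 on gpe_23 and 65.2 on gpe_25, against 0.669 to 181.7 over the TRN plates. Of 12 endothelial and mural genes 7 were at 0 in all, with sums of 166.6 TPM on GPEp24, 8.2 on gpe_23 and 36.6 on gpe_25, against 0 to 38.3 over the TRN plates. GPEp24 was thus above every TRN plate in endothelial and mural markers, while its microglial sum was inside the TRN range. Any endothelial or mural gene was found in only 5 members and 15 TRN members, so these plate sums rest on few nuclei. The median sum over nuclei was 0 in both tissues. GPEp24 also stood apart in Cldn11, Opalin and Klk6, and a link between those genes and the endothelial and mural sum was not tested. The striatal and pallidal list summed to 11.7 to 54.3 TPM and the thalamic list to 97.3 to 190.8 TPM, where Plekhg1, found in 55.4% of members, was the 1 gene that passed. No doublet caller was run. The part of RNA from such cells in the differences above was not tested.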

How the data were processed

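The submitters' processing notes name TopHat2 2.0.10, Seurat 2.2.0, RSEM and Bowtie, and mm10 as build, with no role or order; the handling of reads from multi-copy genes is not stated there. The authors deposited 1 table of natural log (ln) values for 23420 genes and 1687 nuclei. Each value was the ln of 1 + TPM scaled by a number specific to its nucleus. Values were undone by exp(value) - 1 and rescaled to 1000000, after which all 236907 values under 2 TPM lay within 0.1 steps of a multiple of 0.01 TPM. TPM divide by the total of a nucleus, so an abundant transcript lowers all others.

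Columns were assigned to plates and groups by the names in the labels. The rule took 83 of 190 globus pallidus nuclei and 292 of 694 TRN nuclei. Genes found in at least 20% of nuclei of either tissue were compared as log2 of (mean TPM + 1), with 2-fold as the mark: 3777 were tested, 193 were higher and 251 lower. An SD is over the ratios of the 3 globus pallidus plates. The 12 highest and 12 lowest genes meeting the plate rule were to be named (6 and 2 met it), with the 5 most abundant of each list; Glul, Fth1, Grm7, Ttr, Tmsb4x, Rpsa and further genes were picked after their values were seen. Members and lists were chosen with earlier results of these data known. Work used Python 3.11.15, pandas 2.3.3, numpy 2.4.6 and scipy 1.17.1, with scripts tested on simulated data. Alternatives are in the closing section. A further 143 labelled samples of adjacent tissue, with no plate named, were not analysed here. Results for some genes are not reported here.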

Additional observations from a re-analysis of the deposited data

Results flagged for a closer look

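Nuclei meeting the oligodendrocyte rule also appeared on plates outside the comparison. On the adjacent plate ThrP26, 7 of 50 nuclei met it (14%, exact 95% interval 5.82 to 26.7). Their Mbp values ran from 3458 to 22443 TPM, their mean Glul level was 1581 TPM, above the globus pallidus plates, and 2 of the 7 had Klk6. On the TRN plates sorted with NeuN, 5 nuclei met the rule (0.664%, 0.216 to 1.54). Their Mbp values ran from 1770 to 21857 TPM, their mean Glul level was 394.7 TPM, below the globus pallidus plates, and Rbfox3, the gene of NeuN, was found in 1 of the 5.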

How the results depend on the processing

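No paired analysis was possible because each tissue counts as 1 sample, plates carry no shared numbers and no result comes from a test. The share of 43.7% was 35.8% with fewer than 2500 detected genes and 37.7 to 47% without 1 plate. Of the genes tested, 5.11% were higher, 6.65% lower and 0.212% had plates apart. With pseudocount 10 the first 2 shares were 2.22% and 3.04%, and without the highest nucleus of each gene 2.73% and 10.8%. Leaving out that nucleus weighs more on the smaller globus pallidus group, so this shift toward lower values cannot show a direction. With detection in at least 50% of nuclei the 3 shares were 2.19%, 3.38% and 0.199% (2 genes), and with no filter 7.96%, 15.4% and 0.167% (39 genes). By mean log2 values 0.874% were lower. With fewer than 2500 detected genes 0.418% had plates apart. Within prefix X012116 the shares were 19.7%, 24.1% and 24%, and within gpe_23, gpe_25 and trn_10 23.3%, 13.4% and 34.5%; with so few plates they come apart easily. Leaving out 1 plate in turn gave 5.01 to 8.47% higher, 6.1 to 11.5% lower and 0.211 to 1.77% with plates apart. Without the X083116 plates, added after seeing the data, 9.3% were higher and 1.03% apart. Of values at least 2-fold, the direction turned for Meg3 (main 1.05, -0.48 with 3 of 6 rule genes, -3.01 within X012116), Trpm3 (main -1.86, then 0.86 with 3 of 6 and 1.64 among the lower-case plates), Cox7c (-0.22 within X012116) and Cx3cr1, the 1 tested microglial gene and so that list's median (0.25 among the lower-case plates). Signs of smaller values turned as well, among them the medians of neurons (0.58 to -2.05) and noncoding RNAs (0.40 to -0.89) within X012116, and the astrocyte median (-0.57 to 3.94) and S100b (0.41 to -0.99) among the lower-case plates. Causes were not tested, and depth is unknown.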
